A study of Arabidopsis thaliana with 20 samples.

Results

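The 50 genes described here are nuclear genes of photosynthesis, followed in the roots of grafted Arabidopsis thaliana seedlings. They were chosen by name from a table of 32833 gene codes, as the genes of the light-harvesting antennae, the photosystem subunits, the electron carriers and carbon fixation. All 50 passed the filter on low counts, which kept 20862 genes in all. Whole roots were taken from 4 kinds of graft, named here shoot first, in which each part was Col-0 wild type (WT) or cpd, a mutant of the brassinosteroid synthesis gene CPD whose allele the labels do not name. The groups are thus WT shoot on WT root (WT/WT), WT shoot on cpd root (WT/cpd), cpd shoot on WT root (cpd/WT) and cpd shoot on cpd root (cpd/cpd). Each group had 5 replicates of 3 pooled roots, and every p-value rests on how these pools vary, which may be technical, since nothing in the labels says that they came from separate plates or days. The titles of cpd/cpd lack the word for grafting that the other titles carry, so an effect of grafting in comparisons with cpd/cpd cannot be told apart from genotype. The sources used here do not give plant age, light or growth medium.

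Light-harvesting complexes bind chlorophyll and pass light energy to photosystems I and II (PSI and PSII), whose core proteins are encoded in the plastid while the antenna proteins and many peripheral subunits are encoded in the nucleus. Plastocyanin and ferredoxin carry electrons after that, and the Calvin cycle uses the products to fix carbon dioxide. Root plastids of Arabidopsis are mostly non-green and these genes are expressed weakly in roots, where they respond to light and to hormones. Brassinosteroids are growth steroids, and dark-grown seedlings of Arabidopsis that cannot make them express light-regulated genes.

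Library totals ran from 13417029 to 32337043 counts, and levels are given as CPM, the usual scaling of read counts to the total of each library, with TMM factors that correct for composition. The targeted gene CPD (AT5G05690) stood at 38.2 to 51.7 CPM in WT/WT and 34.1 to 45.4 in cpd/WT, against 2.68 to 4.47 in WT/cpd and 2.3 to 3.86 in cpd/cpd, so it followed the root genotype of the label in every library. All 12 markers of root tissue passed the filter, and their sums were 11867 ± 741 CPM for WT/WT, 10515 ± 1686 for WT/cpd, 14356 ± 960 for cpd/WT and 12331 ± 981 for cpd/cpd (SD, n = 5 each), with every cpd/WT library above every WT/WT library. PYK10, with up to 15057 CPM, carries these sums, and the next highest marker, PHO1, reached 552 CPM. For cpd/WT over WT/WT the median log2 fold change was -0.06, and it was above 0 for 4 of the 12 markers. Among them CASP1, which builds the Casparian strip, was called lower than in WT/WT in WT/cpd (0.499-fold, edgeR adjusted p = 0.0028) and in cpd/cpd (log2 fold change -0.70 ± 0.18 SE, edgeR adjusted p = 0.024). Of 21 markers of shoot tissue, the stomatal regulator MUTE, the meristem regulator WUS, the leaf polarity gene FIL and the flowering signal FT had no count in any library, and 14 were under 1 CPM in every library. The summed shoot markers stood at 79.4 ± 33.3 CPM for WT/WT, 82.9 ± 9.56 for WT/cpd, 85.8 ± 34.1 for cpd/WT and 82.7 ± 14.3 for cpd/cpd (SD, n = 5 each). These sums are carried by PDF1, with up to 72.3 CPM, and FDH, with up to 42.9 CPM. edgeR's quasi-likelihood test called none of the 6 shoot markers that could be tested in any comparison. The stomatal peptide gene STOMAGEN, at most 2.4 CPM, nevertheless had log2 fold changes over WT/WT of 1.06 ± 0.46 (SE, edgeR adjusted p = 0.16) in WT/cpd and 0.99 ± 0.46 (SE, edgeR adjusted p = 0.18) in cpd/WT and an interaction of -1.34 ± 0.64 (SE, edgeR adjusted p = 0.21), with unadjusted p of 0.033, 0.045 and 0.048. CER1 had an interaction of the other sign, 0.65 ± 0.65 (SE, edgeR adjusted p = 0.57). Its log2 fold change of cpd/cpd over cpd/WT was 1.45 ± 0.46 (SE, edgeR adjusted p = 0.093, unadjusted p = 0.0049). The interactions of ATML1, PDF1, FDH and CER6 lay between -0.19 and -0.04. STOMAGEN and CER1 were named after their values were seen. The part of these root and shoot markers in the results below was not tested.

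The 50 photosynthesis genes together took 3000 ± 682 CPM for WT/WT, 4412 ± 1129 for WT/cpd, 4981 ± 1072 for cpd/WT and 4767 ± 1245 for cpd/cpd (SD, n = 5 each). The 5 WT/WT libraries gave sums of 2859, 3780, 3623, 2213 and 2526 CPM. Sums in the WT/cpd libraries were 4729, 4956, 5811, 3584 and 2978 CPM, those in cpd/WT 5827, 4257, 3742, 4767 and 6313 CPM and those in cpd/cpd 3897, 4379, 4722, 6908 and 3927 CPM. The highest WT/WT library lay above the lowest library of cpd/WT and above 2 libraries of WT/cpd, and below all 5 of cpd/cpd. For 49 of the 50 genes the mean level was lowest in WT/WT, the exception being the Rubisco small subunit gene RBCS2B, which was lowest in WT/cpd. The highest mean was in cpd/WT for 24 genes, in cpd/cpd for 19 and in WT/cpd for 7, and these places differed with the role of the gene: all 9 carbon fixation genes were highest in cpd/WT and 9 of the 10 PSI subunit genes in cpd/cpd. These means were not tested against each other beyond the comparisons below. RNA was taken from whole roots, so more expressing cells and more RNA per cell cannot be told apart.

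**Figure D1:**
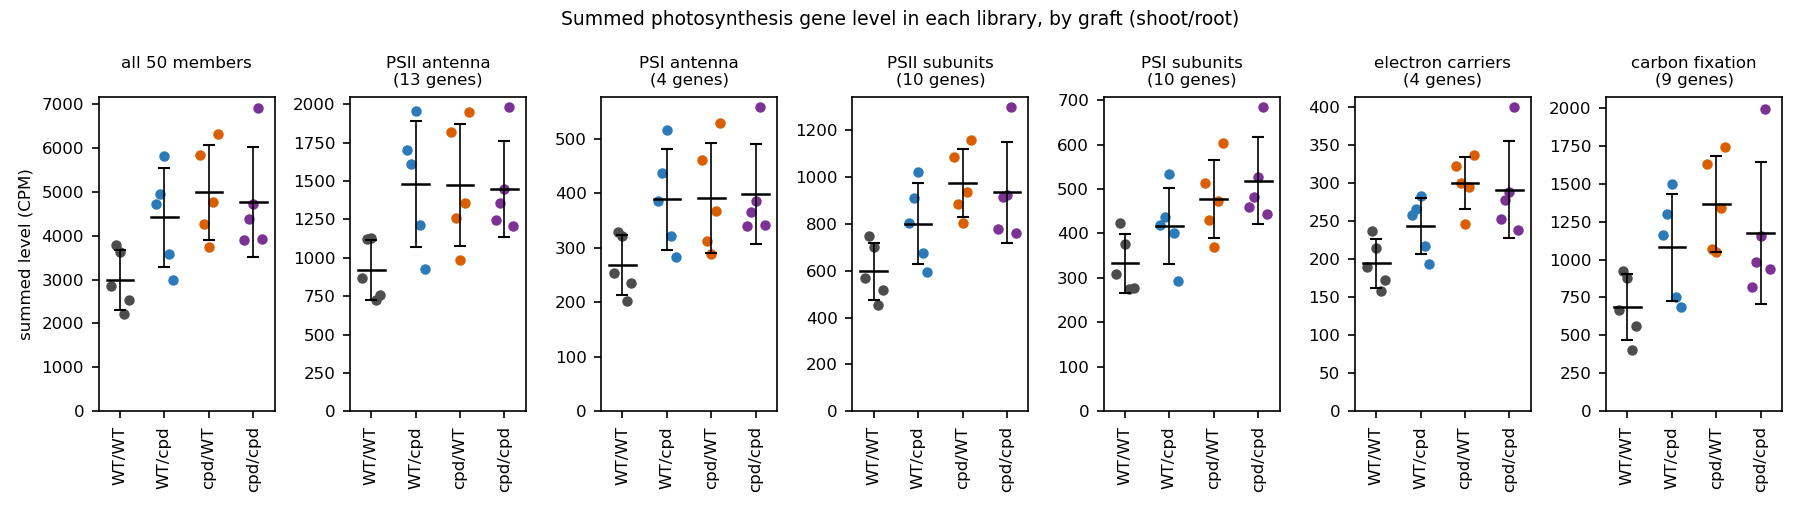
Summed level in CPM of all 50 genes and of each of the 6 role groups, with a point for each library, a line for the mean and a bar of 1 SD (n = 5 per graft, named shoot/root). WT/WT has the lowest mean in every panel, and its libraries overlap those of other grafts in most panels.

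Scaled to the annotated exon length, the genes spanned a wide range within WT/WT roots. The antenna gene LHCB1.3 led with 378 CPM per kb, followed by the Rubisco small subunit gene RBCS1A with 272, the PSII gene PSBR with 161, LHCB1.5 with 108 and the ferredoxin gene FD2 with 96.8 CPM per kb. At the other end were LHCB1.1 with 0.744, the carbonic anhydrase gene CA1 with 0.355 and LHCB1.4 with 0.2 CPM per kb. Genes of the same family were thus counted at levels far apart, with LHCB1.3 and LHCB1.4 at the top and at the bottom of the order. Reads may be shared between close copies, and how reads were assigned is not given, so separate levels within a family are uncertain. Of the 50 genes 18 overlap another annotated gene, and the weakest rest on few counts: LHCB1.4 had 2 to 33 reads per library, LHCB1.1 had 7 to 174 and CA1 had 6 to 238.

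A WT root under a cpd shoot had more RNA of 29 of these genes than a WT root under a WT shoot. All 50 log2 fold changes of cpd/WT over WT/WT were above 0, with a median of 0.64, against a median of -0.01 over all genes tested. edgeR's quasi-likelihood test called 29 of the 50 higher and none lower at an adjusted p under 0.05, where 9.11% of all genes tested were called, 6.21% higher and 2.9% lower. The 29 were 6 of 13 PSII antenna genes, 1 of 4 PSI antenna genes, 8 of 10 PSII subunit genes, 4 of 10 PSI subunit genes, 2 of 4 electron carrier genes and 8 of 9 carbon fixation genes. In 22 of the 50 every cpd/WT library lay above every WT/WT library, which held for 5.17% of all genes tested, with 3.02% lower without overlap. The count of calls was sensitive to single libraries, falling to 14 without WT/WT replicate 1, WT/WT replicate 4 or cpd/WT replicate 5, to 15 without WT/WT replicate 5 or cpd/WT replicate 1, and to 18 without cpd/WT replicate 4. Here and below, the share of all genes called in such fits is not given. Such counts therefore do not show whether the 50 genes moved more than the rest. In each of the 30 alternative fits 14 of the 29 were called: LHCB1.1, LHCB1.5, LHCB2.1, PSBO1, PSBP1, PSBS, PSAK, PETE2, FD2, RBCS3B, RCA, PRK, GAPB and CA1.

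A cpd root under a WT shoot also had more RNA of some of these genes than a WT root under a WT shoot, with 7 of its 8 calls at antenna genes. Of the 50 genes 49 had a log2 fold change of WT/cpd over WT/WT above 0 and the median was 0.43, against -0.01 over all genes tested. Calls were made for 8 genes, all higher, where 9.45% of all genes tested were called, 6.19% higher and 3.26% lower. They were LHCB1.1, LHCB1.2, LHCB1.5, LHCB2.1, LHCB2.2 and LHCB3 of the PSII antenna, LHCA4 of the PSI antenna and the Rubisco activase gene RCA. LHCB1.5 alone had no overlap between the groups, which held in the upward direction for 3.16% of all genes tested. Leaving out a library changed the count from 4 to 18: it was 4 without any of WT/WT replicates 1, 4 and 5 or WT/cpd replicates 1, 2 and 3, 13 without WT/WT replicate 2, 14 without cpd/cpd replicate 4 and 18 without WT/cpd replicate 5. LHCB1.2, LHCB1.5 and LHCB2.1 were called in each of the 30 alternative fits. The comparisons of WT/cpd, cpd/WT and cpd/cpd with WT/WT share the WT/WT libraries, so similar values in them are not separate evidence.

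Where the other graft part was already cpd, edgeR's fit of all libraries called none of the 50 genes. With 1.86% and 4.66% of all genes tested called in these comparisons, 0 of 50 does not set the list apart. The same goes for the overlap of the groups, given the shares below. For cpd/cpd against cpd/WT, which changes the root genotype under a cpd shoot, the median log2 fold change of the 50 genes was -0.02 and 23 of them were above 0, among them none of the 9 carbon fixation genes. edgeR called 0 of the 50, where 1.86% of all genes tested were called, 0.82% higher and 1.04% lower. At an unadjusted p under 0.05 there were 2, LHCB1.1 and CA1, both lower in cpd/cpd, and the DESeq2 Wald test called 0. The libraries of the groups overlapped for all 50, where 2.23% of all genes tested were higher and 2.76% lower without overlap. CA1 was called lower without cpd/cpd replicate 4 (log2 fold change -1.68, edgeR adjusted p = 0.048). For cpd/cpd against WT/cpd, which changes the shoot genotype on a cpd root, the median was 0.23 and 39 of the 50 were above 0. edgeR again called 0, where 4.66% of all genes tested were called, 1.42% higher and 3.25% lower, 7 genes had an unadjusted p under 0.05, and DESeq2 called 2 higher, PSAK and RBCS2B. All 10 PSI subunit genes and all 10 PSII subunit genes had a log2 fold change above 0 there, while 5 of the 13 PSII antenna genes did, none of it past the threshold. Again all 50 overlapped between the groups, where 2.43% of all genes tested were higher and 2.51% lower without overlap.

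**Figure D2:**
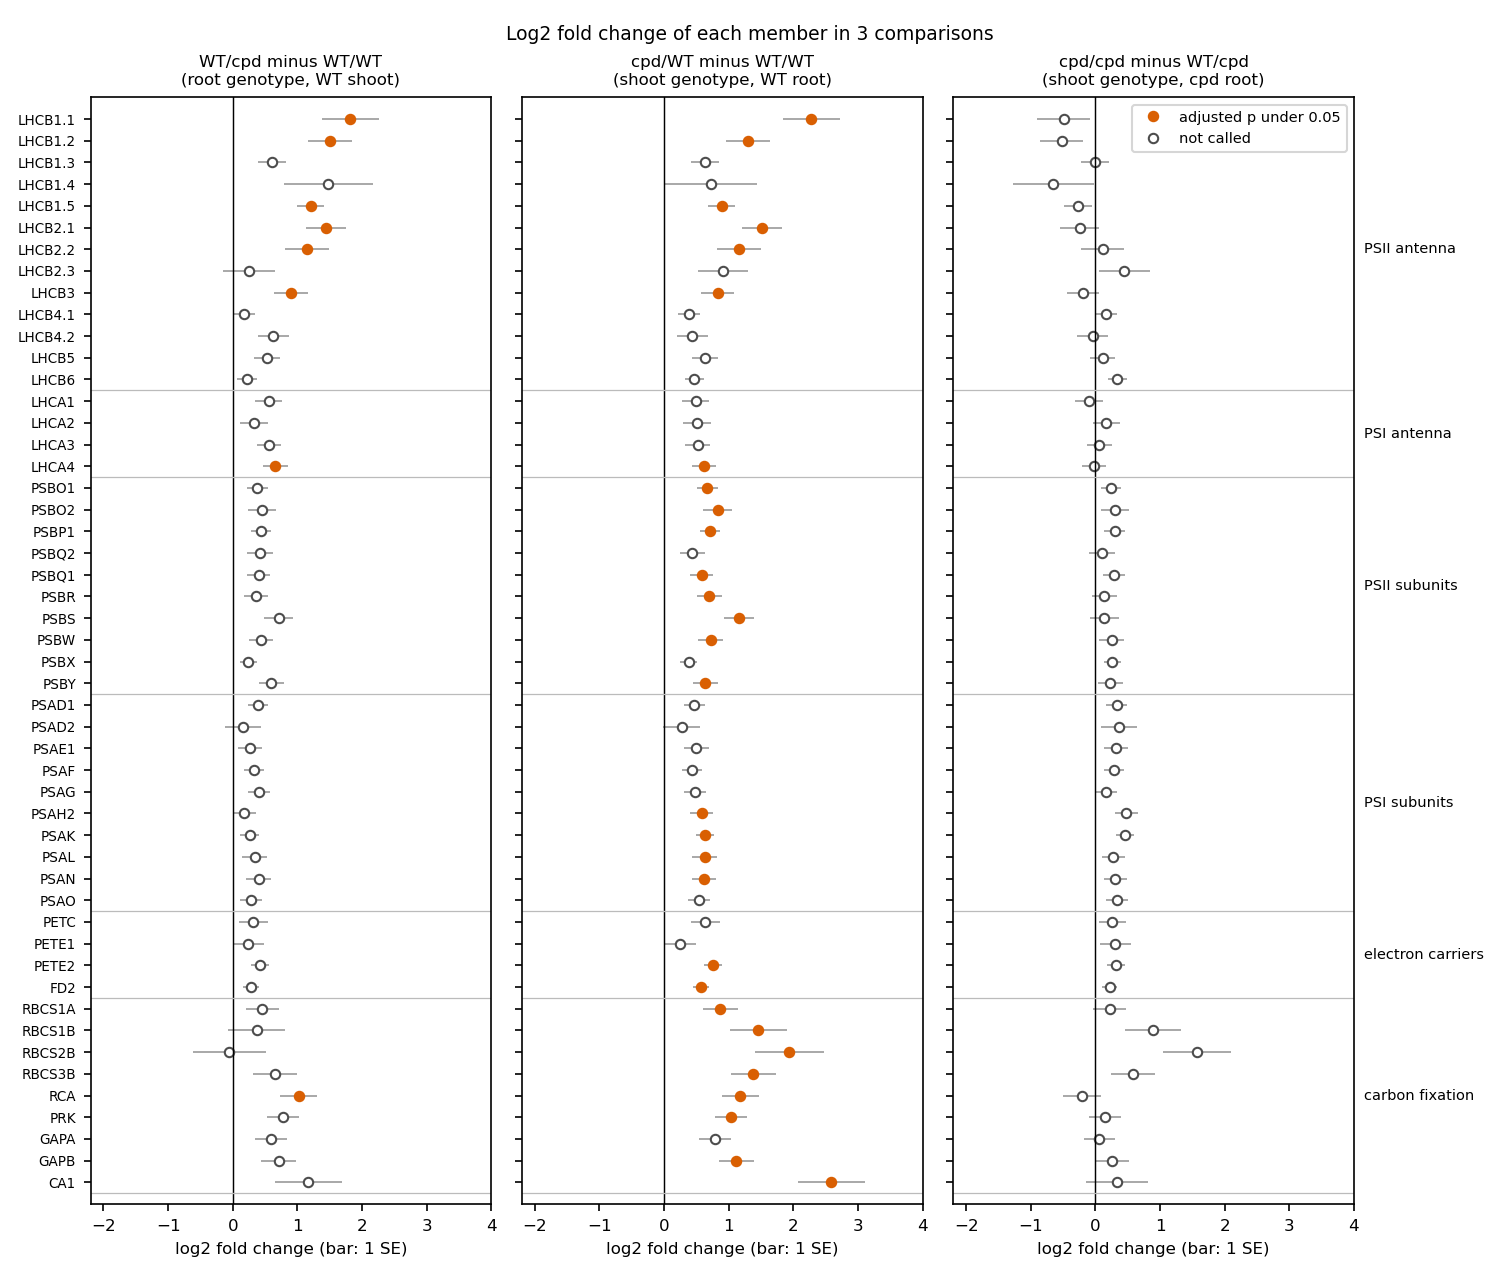
Log2 fold change of each of the 50 genes (points, with a bar of 1 SE) for WT/cpd over WT/WT, cpd/WT over WT/WT and cpd/cpd over WT/cpd, in order of role. Filled points have an edgeR adjusted p under 0.05: 8 genes in the left panel, 29 in the middle panel and none in the right panel.

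For the whole cpd graft over the whole WT graft all 50 log2 fold changes were above 0, with a median of 0.69 against 0.01 over all genes tested. Calls were made for 23 genes, all higher, where 6.36% of all genes tested were called, 3.72% higher and 2.63% lower. They were 4 PSII antenna genes, 1 PSI antenna gene, 7 PSII subunit genes, 6 PSI subunit genes, 2 electron carrier genes and 3 carbon fixation genes. The libraries of cpd/cpd and WT/WT did not overlap for 21 genes, which held in the upward direction for 3.68% of all genes tested. The count was 6 without WT/WT replicate 1 or 5, 8 without cpd/cpd replicate 3, 9 without cpd/cpd replicate 4, 14 without WT/WT replicate 4 and 15 without WT/WT replicate 3. PSAK, PETE2, PSBP1, PSAD1, PSBY and LHCB1.5 were called in every alternative fit. PSAK rose by 0.71 ± 0.14 on the log2 scale (edgeR adjusted p = 0.0059) and PETE2 by 0.74 ± 0.14 (edgeR adjusted p = 0.0048).

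Whether a cpd shoot did the same on a cpd root as on a WT root was tested as an interaction, the log2 fold change of cpd/cpd over WT/cpd minus that of cpd/WT over WT/WT. It was below 0 for 48 of the 50 genes, with a median of -0.46 against 0.03 over all genes tested. Calls below 0 were made for 5 genes, LHCB1.1, LHCB1.2, LHCB1.5, LHCB2.1 and RCA, where 7.73% of all genes tested were called, 5.43% below 0 and 2.3% above 0. The 4 antenna genes were called in each of the 29 alternative fits, and RCA lost its call in 15 of them, 13 of which left out a single library. Without cpd/cpd replicate 4 the count was 11, with LHCB3, PSBS, PETE2, PRK, GAPB and CA1 added. All 5 genes had their lowest mean in WT/WT.

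The PSII antenna holds the trimer-forming LHCB1, LHCB2 and LHCB3 proteins, which carry most of the chlorophyll of the antenna, and the minor proteins LHCB4, LHCB5 and LHCB6, which link them to the photosystem. LHCB1.1 (AT1G29920, chr1:10474656-10475969, minus strand, RefSeq TAIR10.1), LHCB1.2 (AT1G29910, chr1:10472280-10473502, minus strand) and LHCB1.3 (AT1G29930, chr1:10477885-10479114, plus strand) are neighbours and near-identical copies. Their coding sequences are 804 bases long and identical at 95.6% to 96.4% of positions in pairs, with identical runs of up to 119 bases, so reads may be shared between them and their separate levels are uncertain. The 60 coding bases from position 25 to 84, read from RefSeq TAIR10.1, are printed because no other window of this length holds more differences, which are the bases that tell the copies apart. Capitals mark the 8 positions in this window where the 3 genes differ, of 47 in the whole coding sequence.
LHCB1.1 (chr1:10475809-10475868, minus strand): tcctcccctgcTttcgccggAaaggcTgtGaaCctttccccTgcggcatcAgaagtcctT
LHCB1.2 (chr1:10473163-10473222, minus strand): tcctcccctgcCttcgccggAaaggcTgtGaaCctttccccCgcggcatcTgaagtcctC
LHCB1.3 (chr1:10478095-10478154, plus strand): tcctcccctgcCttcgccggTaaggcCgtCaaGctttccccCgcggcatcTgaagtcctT

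All 3 copies were lowest in WT/WT, and no test compared the copies with each other. LHCB1.1 had 0.852, 1.96, 1.29, 0.355 and 0.438 CPM for WT/WT, 5.07, 3.13, 5.8, 2.09 and 1.77 for WT/cpd, 6.04, 4.16, 3.7, 4.78 and 5.67 for cpd/WT and 1.35, 2.34, 2.82, 4.81 and 1.3 for cpd/cpd. Its cpd/WT libraries all lay above its WT/WT libraries, while WT/cpd and WT/WT overlapped at their edge and 4 of 5 cpd/cpd libraries lay below every cpd/WT library. The log2 fold change was 2.28 ± 0.44 (SE, edgeR adjusted p = 0.0057) for cpd/WT over WT/WT, 1.82 ± 0.44 (SE, edgeR adjusted p = 0.015) for WT/cpd over WT/WT and -2.77 ± 0.60 (SE, edgeR adjusted p = 0.0094) for the interaction. LHCB1.2 had 10.2, 15.2, 13.9, 7.54 and 8.38 CPM for WT/WT, 44.4, 33.3, 48.1, 17.8 and 14.2 for WT/cpd, 39.6, 19.1, 17.8, 22.7 and 37.6 for cpd/WT and 16.6, 20.5, 20.9, 35.4 and 16.3 for cpd/cpd. Every cpd/WT and every cpd/cpd library exceeded the WT/WT libraries, and 1 of the 5 WT/cpd libraries fell among them. The interaction for LHCB1.2 was -1.82 ± 0.47 (SE, edgeR adjusted p = 0.025) on the log2 scale. LHCB1.3, the strongest of the 50 genes per kb, had 443, 543, 595, 370 and 376 CPM for WT/WT, 887, 712, 920, 607 and 422 for WT/cpd, 933, 614, 462, 657 and 946 for cpd/WT and 584, 675, 708, 964 and 601 for cpd/cpd. Its groups overlapped throughout, and its log2 fold change over WT/WT was 0.63 ± 0.22 (SE, edgeR adjusted p = 0.077) in cpd/WT and 0.61 ± 0.22 (SE, edgeR adjusted p = 0.091) in WT/cpd. Neither passed in edgeR's fit of all libraries, while LHCB1.3 was called in cpd/WT by DESeq2 (adjusted p = 0.039) and in WT/cpd without WT/cpd replicate 5 (edgeR adjusted p = 0.03).

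LHCB1.5 (AT2G34420, chr2:14522524-14523568, minus strand) lies wholly within the span of an annotated antisense RNA gene, AT2G08665, which had 2 to 26 counts per library, and whether the counting used strand is not given. LHCB1.5 had 107, 143, 135, 85.9 and 95.7 CPM for WT/WT, 281, 310, 354, 196 and 167 for WT/cpd, 246, 180, 144, 186 and 291 for cpd/WT and 207, 216, 219, 269 and 171 for cpd/cpd. All 15 libraries of the other grafts lay above the 5 of WT/WT. The share of all genes tested that does so was not counted, so this does not set LHCB1.5 apart. Its log2 fold change was 1.21 ± 0.21 (SE, edgeR adjusted p = 0.0026) for WT/cpd over WT/WT, 0.89 ± 0.21 (SE, edgeR adjusted p = 0.016) for cpd/WT over WT/WT, 0.94 ± 0.21 (SE, edgeR adjusted p = 0.013) for cpd/cpd over WT/WT and -1.16 ± 0.30 (SE, edgeR adjusted p = 0.022) for the interaction. LHCB2.1 (AT2G05100, on the minus strand of chromosome 2) encodes the antenna protein whose phosphorylation moves antenna between the photosystems. Its coding sequence has an identical run of 137 bases with LHCB2.2, and that of LHCB1.5 has one of 122 bases with LHCB1.4. Reads may be shared within these pairs too, so the separate levels of LHCB1.5 and LHCB2.1 are uncertain. LHCB2.1 had 13, 20.4, 13, 9.62 and 9.94 CPM for WT/WT, 43.5, 45.8, 50.9, 22.1 and 17.2 for WT/cpd, 48.8, 32.3, 23, 35.7 and 50.3 for cpd/WT and 29.9, 29, 30, 45.3 and 17.5 for cpd/cpd. Its WT/WT libraries lay below all those of cpd/WT and overlapped WT/cpd and cpd/cpd through WT/WT replicate 2. The log2 fold change of LHCB2.1 was 1.52 ± 0.31 (SE, edgeR adjusted p = 0.0082) for cpd/WT over WT/WT and -1.76 ± 0.43 (SE, edgeR adjusted p = 0.018) for the interaction. The minor antenna genes LHCB4.1, LHCB4.2, LHCB5 and LHCB6 had log2 fold changes of cpd/WT over WT/WT from 0.38 to 0.64. edgeR called none of them there, and DESeq2 called LHCB5 (adjusted p = 0.022) and LHCB6 (adjusted p = 0.034).

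**Figure D3:**
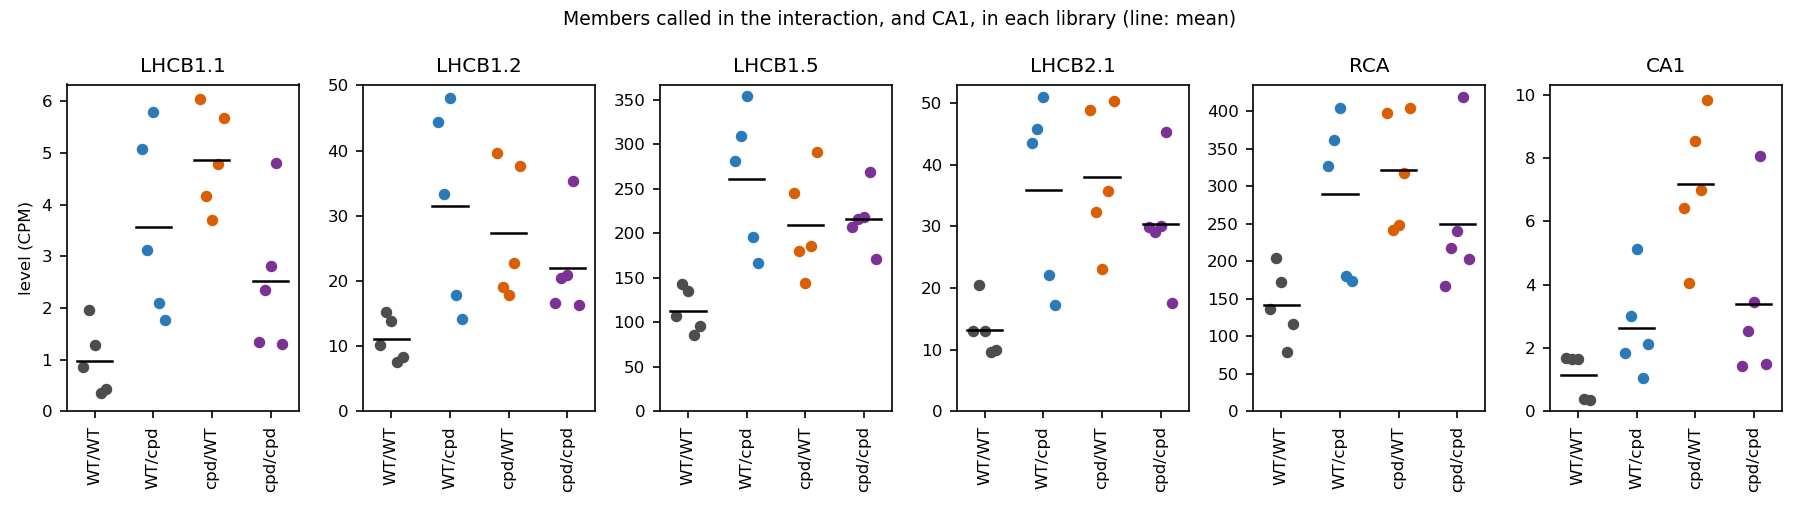
Level in CPM of the 5 genes called in the interaction, and of CA1, in each library (points) with the group mean (line, n = 5 per graft). WT/WT is lowest for every gene, and for CA1 the cpd/WT mean of 7.17 CPM is the highest.

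The 4 PSI antenna genes, LHCA1 to LHCA4, encode the proteins of the light-harvesting crescent bound to PSI. LHCA4 had 77.6, 93.5, 97.6, 66.7 and 79.4 CPM for WT/WT, 133, 149, 169, 108 and 96.7 for WT/cpd, 165, 102, 92.9, 110 and 168 for cpd/WT and 110, 118, 127, 183 and 109 for cpd/cpd. The highest WT/WT library overlapped cpd/WT and WT/cpd and lay below all cpd/cpd libraries. Its log2 fold change was 0.66 ± 0.19 (SE, edgeR adjusted p = 0.034) for WT/cpd and 0.62 ± 0.19 (SE, edgeR adjusted p = 0.046) for cpd/WT, each over WT/WT. These calls were lost in 9 and 16 of the 30 alternative fits, with edgeR adjusted p up to 0.095 and 0.12. LHCA3 had 56.8, 79.1, 69.8, 50.3 and 52.9 CPM for WT/WT, 89.8, 99.7, 118, 80.7 and 66.6 for WT/cpd, 106, 70.8, 62.2, 84 and 121 for cpd/WT and 81.3, 88.8, 88.1, 130 and 86.3 for cpd/cpd. LHCA2 had 72.8, 96.8, 99.5, 53.3 and 63.6 CPM for WT/WT, 99.6, 104, 130, 83.1 and 69.6 for WT/cpd, 115, 86.3, 76.9, 114 and 156 for cpd/WT and 92.6, 98.1, 108, 154 and 93.3 for cpd/cpd. Both overlapped between WT/WT and cpd/WT, and edgeR's fit of all libraries called neither in any comparison, with log2 fold changes of cpd/WT over WT/WT of 0.52 ± 0.19 (SE, edgeR adjusted p = 0.086) and 0.51 ± 0.21 (SE, edgeR adjusted p = 0.14). DESeq2 called LHCA3 higher in WT/cpd (log2 fold change 0.56, adjusted p = 0.037) and in cpd/cpd (log2 fold change 0.61, adjusted p = 0.024), each against WT/WT. The cpd/cpd replicate 4 library was the highest of its group for all 3.

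Among the PSII subunits, PSBO, PSBP, PSBQ and PSBR belong to or support the oxygen-evolving complex on the lumen side, and PSBS senses lumen acidity and starts the dissipation of excess light as heat. PSBS had 50.2, 60.4, 53.2, 30.1 and 37.2 CPM for WT/WT, 84.9, 93.8, 98.3, 54.9 and 46.6 for WT/cpd, 128, 101, 76.3, 99.8 and 112 for cpd/WT and 69.7, 87.3, 89, 116 and 53.9 for cpd/cpd. The cpd/WT libraries all exceeded the WT/WT libraries, and PSBS had the largest change of the 10 subunit genes, 1.16 ± 0.23 (SE, edgeR adjusted p = 0.0072) on the log2 scale. PSBP1 had 83.5, 108, 94.3, 66.7 and 69.9 CPM for WT/WT, 119, 128, 143, 100 and 84 for WT/cpd, 153, 127, 117, 130 and 167 for cpd/WT and 126, 136, 142, 187 and 117 for cpd/cpd. The WT/WT libraries lay below all libraries of cpd/WT and of cpd/cpd, with log2 fold changes of 0.71 ± 0.16 (SE, edgeR adjusted p = 0.012) and 0.75 ± 0.16 (SE, edgeR adjusted p = 0.0094). PSBO1 had 128, 165, 152, 110 and 122 CPM for WT/WT, 185, 194, 222, 150 and 131 for WT/cpd, 243, 192, 178, 204 and 260 for cpd/WT and 176, 200, 199, 288 and 178 for cpd/cpd. PSBR had 119, 156, 158, 84.5 and 112 CPM for WT/WT, 139, 206, 205, 126 and 134 for WT/cpd, 224, 196, 191, 185 and 228 for cpd/WT and 141, 188, 172, 261 and 133 for cpd/cpd. For both genes cpd/WT lay wholly above WT/WT, by 0.67 ± 0.16 (SE, edgeR adjusted p = 0.016) for PSBO1 and 0.70 ± 0.19 (SE, edgeR adjusted p = 0.03) for PSBR on the log2 scale. The 2 subunit genes that edgeR did not call in cpd/WT were PSBQ2 and PSBX, of which DESeq2 called PSBX (adjusted p = 0.041). In WT/cpd edgeR called no PSII subunit gene, and DESeq2 called PSBS and PSBY (adjusted p = 0.024 for each).

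The PSI subunit genes differed by small amounts, with log2 fold changes of cpd/WT over WT/WT from 0.27 to 0.63 and of WT/cpd over WT/WT from 0.16 to 0.40. PSAK, a membrane subunit beside the PSI antenna, had 37.7, 45.7, 43.7, 29 and 32.4 CPM for WT/WT, 38, 47.9, 56.9, 47.2 and 34.9 for WT/cpd, 60.7, 57.2, 50.2, 55.3 and 69.1 for cpd/WT and 59.4, 58.7, 63.5, 75.4 and 52 for cpd/cpd. All WT/WT libraries lay below those of cpd/WT and of cpd/cpd, and the log2 fold change was 0.63 ± 0.14 (SE, edgeR adjusted p = 0.012) for cpd/WT. For cpd/cpd over WT/cpd PSAK had the smallest adjusted p of the 50 genes without passing, 0.46 ± 0.14 (SE, edgeR adjusted p = 0.065). PSAL, which takes part in the docking of LHCII, had 35.3, 54.6, 44.7, 31.2 and 34.1 CPM for WT/WT, 54.6, 50.9, 68.1, 47 and 32.1 for WT/cpd, 68.3, 54, 49.1, 61.5 and 77.3 for cpd/WT and 55.1, 58.6, 63.4, 80 and 48.7 for cpd/cpd. PSAF, part of the plastocyanin docking site, had 56.9, 76.4, 65.5, 52.5 and 49.8 CPM for WT/WT, 85.5, 76.8, 90.9, 70 and 54.8 for WT/cpd, 88.6, 69.5, 64.4, 82.2 and 101 for cpd/WT and 83, 87.1, 93.6, 119 and 78.9 for cpd/cpd. PSAD1, part of the ferredoxin docking site, had 40.5, 53.6, 45.7, 41.7 and 31.7 CPM for WT/WT, 55.2, 60.8, 67.8, 56.6 and 38.9 for WT/cpd, 67.5, 52.8, 45.6, 58.2 and 71.9 for cpd/WT and 65.2, 63.1, 68.8, 91.2 and 62.7 for cpd/cpd. The log2 fold changes over WT/WT in cpd/WT and in cpd/cpd were 0.63 and 0.61 for PSAL, 0.43 and 0.62 for PSAF, and 0.47 and 0.72 for PSAD1. edgeR called PSAL in cpd/WT and PSAF and PSAD1 in cpd/cpd, and DESeq2 also called PSAL in cpd/cpd (adjusted p = 0.025) and PSAD1 in cpd/WT (adjusted p = 0.037). None of the 3 was called between cpd/cpd and cpd/WT by either tool.

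Of the electron carriers, PETE1 and PETE2 encode plastocyanin, FD2 the main leaf ferredoxin and PETC the Rieske protein of the cytochrome b6f complex. PETE2 had 50.6, 60.9, 54.2, 45.8 and 42.8 CPM for WT/WT, 70.5, 67.6, 82.1, 65.8 and 53.9 for WT/cpd, 85.1, 92, 67, 86.5 and 99.7 for cpd/WT and 69.8, 84, 81.8, 116 and 72.6 for cpd/cpd. The cpd/WT and cpd/cpd libraries all exceeded WT/WT, and the log2 fold change of cpd/WT was 0.76 ± 0.14 (SE, edgeR adjusted p = 0.005), the smallest adjusted p of the 50 genes. FD2 had 92.7, 117, 101, 80.3 and 85 CPM for WT/WT, 131, 125, 127, 106 and 90.7 for WT/cpd, 154, 145, 121, 138 and 150 for cpd/WT and 126, 131, 142, 166 and 109 for cpd/cpd. Its cpd/WT libraries lay above all of WT/WT, at 0.57 ± 0.12 (SE, edgeR adjusted p = 0.0098) on the log2 scale. The carriers that edgeR did not call in cpd/WT were PETC, at 0.64 ± 0.22 (SE, edgeR adjusted p = 0.069), and PETE1, at 0.25 ± 0.24 (SE, edgeR adjusted p = 0.56), and DESeq2 called PETC (adjusted p = 0.037). In WT/cpd edgeR called none of the 4 carriers, and DESeq2 called PETE2 (adjusted p = 0.04).

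The carbon fixation genes had the highest median of the 6 roles for cpd/WT over WT/WT, a log2 fold change of 1.18. CA1 encodes a carbonic anhydrase, which interconverts carbon dioxide and bicarbonate and is very abundant in leaves. CA1 had 1.7, 1.66, 1.64, 0.399 and 0.375 CPM for WT/WT, 1.86, 3, 5.14, 1.06 and 2.13 for WT/cpd, 6.42, 4.07, 8.54, 6.98 and 9.85 for cpd/WT and 1.44, 2.54, 3.46, 8.06 and 1.51 for cpd/cpd. Each cpd/WT library lay above each WT/WT library, and the log2 fold change of 2.59 ± 0.52 (SE, edgeR adjusted p = 0.0069) was 6.04-fold. In cpd/cpd only replicate 4 reached the levels of cpd/WT, and the interaction of CA1 was -2.26 ± 0.70 (SE, edgeR adjusted p = 0.054), just short of the threshold, with a call below 0 by DESeq2 (-2.27, adjusted p = 0.015). CA1 (AT3G01500, chr3:194426-198664, minus strand) shares 343 bases with AT3G01510 on the same strand. That neighbour stood between 4.5 and 6.74 CPM in the 20 libraries and had a log2 fold change of -0.00 ± 0.14 for cpd/WT over WT/WT.

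GAPB, a subunit of the photosynthetic glyceraldehyde-3-phosphate dehydrogenase, had 35.2, 47.4, 50.3, 22.3 and 31.5 CPM for WT/WT, 56.2, 79, 84.4, 42.9 and 42.2 for WT/cpd, 93.1, 69.5, 67.4, 78.7 and 98 for cpd/WT and 53.8, 60.9, 70.2, 129 and 51.6 for cpd/cpd. RBCS1A, the main gene for the small subunit of Rubisco, had 336, 460, 446, 203 and 281 CPM for WT/WT, 511, 557, 652, 353 and 310 for WT/cpd, 752, 503, 479, 614 and 806 for cpd/WT and 389, 461, 554, 939 and 433 for cpd/cpd. RCA, the activase that frees Rubisco of inhibiting sugars (AT2G39730, chr2:16570746-16573692, minus strand), had 137, 205, 173, 79.9 and 116 CPM for WT/WT, 327, 362, 404, 180 and 174 for WT/cpd, 398, 242, 248, 318 and 404 for cpd/WT and 167, 218, 241, 419 and 203 for cpd/cpd. For all 3 the cpd/WT libraries stood clear of WT/WT while WT/cpd overlapped WT/WT. The log2 fold change of cpd/WT over WT/WT was 1.12 ± 0.27 (SE, edgeR adjusted p = 0.016) for GAPB, 0.87 ± 0.27 (SE, edgeR adjusted p = 0.045) for RBCS1A and 1.18 ± 0.29 (SE, edgeR adjusted p = 0.019) for RCA. RCA was the only carbon fixation gene that edgeR called in WT/cpd, at 1.02 ± 0.29 (SE, edgeR adjusted p = 0.032), and in the interaction, at -1.39 ± 0.41 (SE, edgeR adjusted p = 0.042). DESeq2 also called PRK in WT/cpd (log2 fold change 0.78, adjusted p = 0.023) and, as given above, CA1 in the interaction. The minor Rubisco genes RBCS1B, RBCS2B and RBCS3B lie side by side and are identical at 94.1% to 97.3% of coding positions in pairs, so their separate levels are uncertain. Their log2 fold changes of cpd/WT over WT/WT were 1.46, 1.94 and 1.38, all called, against 0.37, -0.05 and 0.65 in WT/cpd, where none was called. GAPA was the carbon fixation gene not called in cpd/WT (log2 fold change 0.79 ± 0.25 SE, edgeR adjusted p = 0.051), although its libraries did not overlap.

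The 50 genes also went up and down together among the libraries of the same graft. Deviations of log2 CPM from the group mean, over 20 libraries, had a median Pearson correlation of 0.85 over the 1225 pairs of genes, and 99.8% of the pairs were positive. Among genes with a mean of at least 10 CPM the 946 pairs lay between 0.60 and 0.99. The same deviations had a median correlation with all genes tested of -0.00, with the 6 tested shoot markers of 0.16, with plastid-encoded genes of 0.21 and with 5 genes for root-type plastid isoforms of -0.52. Single pairs ran from -0.89 to 0.74 for the shoot markers, from -0.45 to 0.81 for plastid-encoded genes and from -0.83 to 0.35 for root-type isoforms. The points share libraries and depth, and these values are descriptions. In each graft 1 library held the highest level of most genes: WT/WT replicate 2 for 37 of the 50, WT/cpd replicate 3 for 46, cpd/WT replicate 5 for 44 and cpd/cpd replicate 4 for 47. The lowest levels were in WT/WT replicate 4 for 37, in WT/cpd replicate 5 for 43 and in cpd/WT replicate 3 for 43, and in cpd/cpd they were divided between replicate 5 with 24 and replicate 1 with 21. The summed shoot markers were 91.5 CPM in WT/cpd replicate 3, 128 in cpd/WT replicate 5 and 105 in cpd/cpd replicate 4. Each sum was the highest of its graft, although WT/cpd replicate 1 had nearly as much, 91.3 CPM. In WT/WT replicate 2 the summed shoot markers were 58.8 CPM. WT/WT replicate 4, with the lowest sum of the photosynthesis genes of any library, had the highest sum of shoot markers, 130 CPM. The lowest sum of shoot markers, 44.3 CPM, was in cpd/WT replicate 3. The other low libraries had 86.4 CPM (WT/cpd replicate 5), 88.4 (cpd/cpd replicate 5) and 71.9 (cpd/cpd replicate 1). The part of shoot tissue in these levels was not tested. The counts of calls above rest on genes that move together in this way, and the 50 genes are not 50 independent observations.

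**Figure D4:**
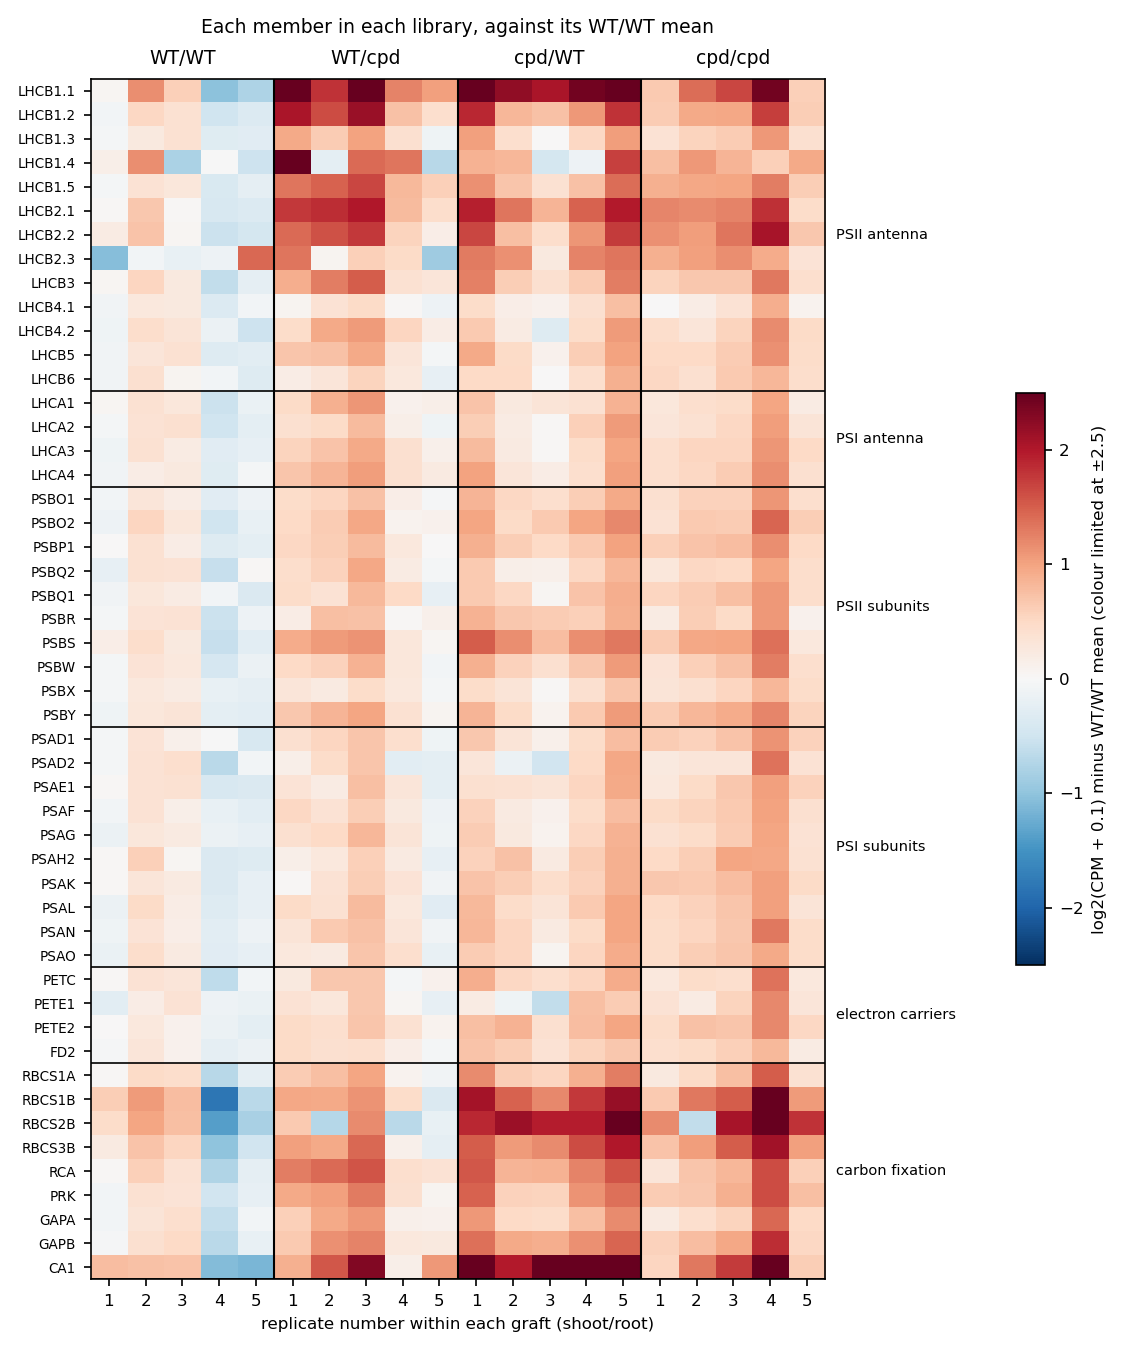
Level of each of the 50 genes (rows, by role) in each of the 20 libraries (columns, by graft and replicate), as log2(CPM + 0.1) minus the mean of the WT/WT libraries, with colours limited at 2.5 either way. Columns differ as whole blocks within a graft, as in cpd/cpd replicate 4, which holds the highest level of its group for 47 of the 50 genes.

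Other genes of photosynthesis and greening were taken from lists put together with earlier results of these data known. Of 88 such genes tested, edgeR called 34 higher and none lower in cpd/WT against WT/WT, where 6.21% of all genes tested were called higher, and their median log2 fold change was 0.47 against -0.01 over all genes. In WT/cpd against WT/WT 13 were called higher, where 6.19% of all genes tested were, with a median of 0.30 against -0.01. In cpd/cpd against WT/cpd 2 were called higher, where 1.42% of all genes tested were, and in cpd/cpd against cpd/WT 0 were called, with 13 at an unadjusted p under 0.05. In the interaction 9 were called below 0, where 5.43% of all genes tested were. Other light reaction genes had 8 of 20 called higher in cpd/WT, with the smallest adjusted p at the antenna gene LHCB4.3 (log2 fold change 1.18 ± 0.23 SE, edgeR adjusted p = 0.006), the ATP synthase subunit gene ATPD and PSBTN. Other Calvin cycle genes had 7 of 16, among them SBPASE, sedoheptulose-bisphosphatase (log2 fold change 1.07 ± 0.21 SE, edgeR adjusted p = 0.006), the phosphoglycerate kinase gene PGK1, and CA2, a second carbonic anhydrase gene (log2 fold change 3.09 ± 0.60 SE, edgeR adjusted p = 0.0057). Photorespiration had 5 of 11, including SHM1, serine hydroxymethyltransferase (log2 fold change 0.75 ± 0.14 SE, edgeR adjusted p = 0.0053), the glycine decarboxylase gene GLDP1 (log2 fold change 0.67 ± 0.14 SE, edgeR adjusted p = 0.0082) and GOX1, glycolate oxidase, whose interaction was -1.47 ± 0.43 (SE, edgeR adjusted p = 0.043).

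Light-harvesting-like proteins, some of which protect the thylakoid when light is in excess, had 4 of 6 called higher in cpd/WT. ELIP1 had a log2 fold change of 2.48 ± 0.48 (SE, edgeR adjusted p = 0.0057) there and an interaction of -2.88 ± 0.65 (SE, edgeR adjusted p = 0.012). ELIP2 had 2.26 ± 0.50 (SE, edgeR adjusted p = 0.013) and an interaction of -2.45 ± 0.69 (SE, edgeR adjusted p = 0.035), and OHP1, a small protein of PSII assembly, had 0.99 ± 0.16 (SE, edgeR adjusted p = 0.0029). Of 30 genes for greening regulators and chlorophyll synthesis 10 were called higher in cpd/WT, 6 in WT/cpd and none lower. CHLH, the large subunit of magnesium chelatase, was called in WT/cpd (log2 fold change 1.03 ± 0.19 SE, edgeR adjusted p = 0.0031), in cpd/WT (log2 fold change 1.19 ± 0.19 SE, edgeR adjusted p = 0.0025) and in the interaction, at -1.21 ± 0.26 (SE, edgeR adjusted p = 0.0096). The sigma factor gene SIG1 (log2 fold change 0.43 ± 0.08 SE, edgeR adjusted p = 0.005) and the magnesium chelatase gene CHLI1 (log2 fold change 0.49 ± 0.10 SE, edgeR adjusted p = 0.0088) also rose in cpd/WT. edgeR called none of the 5 root-type plastid isoforms, which serve ferredoxin reduction and glycolysis in non-green plastids, in any comparison. With 9.11% of all genes tested called in cpd/WT, 0 of 5 does not set this list apart. The ferredoxin gene FD3 had a log2 fold change of 0.15 ± 0.12 (SE, edgeR adjusted p = 0.46), the dehydrogenase gene GAPCP2 one of -0.12 ± 0.13 (SE, edgeR adjusted p = 0.61) and the reductase gene RFNR2 one of 0.52 ± 0.21 (SE, edgeR adjusted p = 0.13) in cpd/WT, and at an unadjusted p under 0.05 there was 1 of the 5. The summed plastid-encoded genes stood at 745 ± 88.3 CPM for WT/WT, 648 ± 46.7 for WT/cpd, 636 ± 79.8 for cpd/WT and 733 ± 125 for cpd/cpd (SD, n = 5 each).

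**Figure D5:**
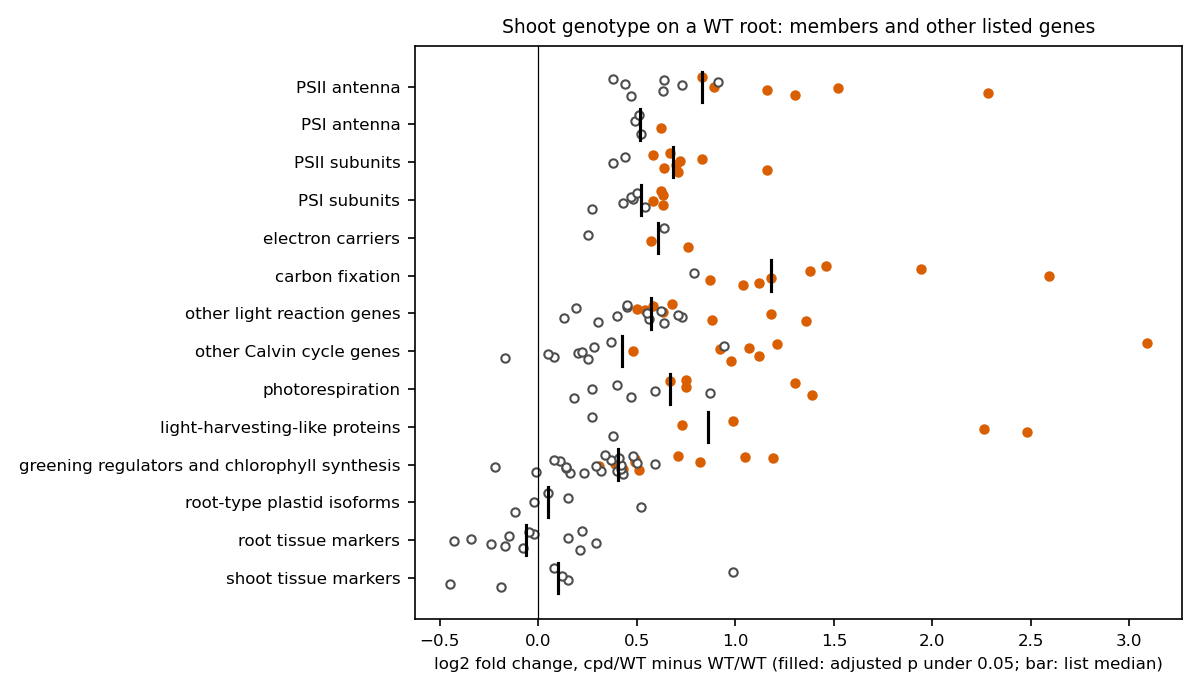
Log2 fold change of cpd/WT over WT/WT for the genes of each role and of the other lists, with a point for each gene (filled where the edgeR adjusted p is under 0.05) and a bar for the median of the list. The 6 photosynthesis roles lie to the right of 0, and no root-type plastid isoform, root marker or shoot marker is filled.

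The promoters of the 5 genes called in the interaction are printed to show the sequence that these jointly moving genes do and do not share. Each is the 250 bases before the annotated gene start in RefSeq TAIR10.1, on the strand of the gene, with capitals at matches to 4 motifs searched on both strands. The motifs were the G-box core CACGTG, the I-box GATAAG, the CCAATC element and the brassinosteroid response element CGTGTG or CGTGCG.
LHCB1.1 (chr1:10475970-10476219, minus strand): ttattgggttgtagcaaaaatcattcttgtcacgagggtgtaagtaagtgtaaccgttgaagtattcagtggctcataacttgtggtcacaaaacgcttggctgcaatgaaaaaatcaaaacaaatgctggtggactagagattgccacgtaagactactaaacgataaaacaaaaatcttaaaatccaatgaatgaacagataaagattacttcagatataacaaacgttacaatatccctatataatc
LHCB1.2 (chr1:10473503-10473752, minus strand): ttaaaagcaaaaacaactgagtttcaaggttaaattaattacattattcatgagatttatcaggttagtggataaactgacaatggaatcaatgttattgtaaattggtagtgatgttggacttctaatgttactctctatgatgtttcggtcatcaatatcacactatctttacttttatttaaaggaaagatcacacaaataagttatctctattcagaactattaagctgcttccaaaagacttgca
LHCB1.5 (chr2:14523569-14523818, minus strand): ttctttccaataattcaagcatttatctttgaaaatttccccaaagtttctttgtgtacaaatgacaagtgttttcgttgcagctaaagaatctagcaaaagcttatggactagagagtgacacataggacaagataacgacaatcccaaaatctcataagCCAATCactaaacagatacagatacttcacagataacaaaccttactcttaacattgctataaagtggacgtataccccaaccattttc
LHCB2.1 (chr2:1824481-1824730, minus strand): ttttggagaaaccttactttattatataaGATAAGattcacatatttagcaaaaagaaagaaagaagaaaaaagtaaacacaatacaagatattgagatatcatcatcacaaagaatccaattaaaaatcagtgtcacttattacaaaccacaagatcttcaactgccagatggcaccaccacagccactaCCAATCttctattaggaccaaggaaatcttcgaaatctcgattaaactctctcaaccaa
RCA (chr2:16573693-16573942, minus strand): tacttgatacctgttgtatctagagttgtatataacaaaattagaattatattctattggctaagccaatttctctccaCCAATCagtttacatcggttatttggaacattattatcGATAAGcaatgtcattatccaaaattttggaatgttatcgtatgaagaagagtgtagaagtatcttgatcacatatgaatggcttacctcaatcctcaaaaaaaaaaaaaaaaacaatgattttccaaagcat

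LHCB1.1 and LHCB1.2, nearly identical in their coding sequence, held none of the motifs in this window. The annotated start of LHCB1.2 lies further before its coding sequence than that of LHCB1.1, so their windows do not cover matching stretches. LHCB1.5 held CCAATC, and LHCB2.1 and RCA each held CCAATC and GATAAG. Over the windows of all 50 genes CACGTG was found in 9, or 18%, against 7.29% of 20240 promoters of protein-coding genes tested. GATAAG was found in 13, or 26%, against 12.2% of all promoters. CCAATC was found in 14, or 28%, against 10.5% of all promoters, and these were 7 of 13 PSII antenna genes, 3 of 4 PSI antenna genes and none of 10 PSI subunit genes. The brassinosteroid response element was found in 2 of the 50, or 4%, against 7.05% of all promoters. These matches describe the letters of the windows and were not tested.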

How the data were processed

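Per the labels' protocols, RNA of 3 pooled roots per replicate was extracted with RNeasy Plant Mini columns, and NEBNext Ultra II Directional libraries were made from it. The submitters' processing notes list STAR as a tool and TAIR10 as the genome. The sources used here do not give how reads were assigned to genes, or whether by strand. The table the authors deposited holds raw read counts per gene. From these, CPM with TMM scaling and edgeR 4.0.16 quasi-likelihood fits (R 4.3.3) were computed over all 20 libraries, with filterByExpr as filter and Benjamini-Hochberg adjustment over 20862 genes. Calls needed an adjusted p under 0.05. Each SE is the log2 fold change divided by the square root of F. Alternatives included DESeq2 1.42.0, other scalings and filters, a replicate block and leaving out each library. Sequences and coordinates came from RefSeq TAIR10.1, which held 32548 of the 32833 codes and all 173 listed genes. The 50 genes and all lists were chosen with earlier results of these data known. Values in every library are given, per role, for the 2 members with the smallest adjusted p in cpd/WT against WT/WT and the 2 with the highest mean CPM, and for members called in the interaction. Of the other lists, up to 3 genes with the smallest adjusted p in that comparison and those called in the interaction are named. Genes named outside this rule were chosen after their values were seen. The statistics were tested on simulated data.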

Additional observations from a re-analysis of the deposited data

Results flagged for a closer look

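In the cpd/cpd group, replicate 4 stood far above the other 4 libraries for 7 photosynthesis genes, by a gap test at the 95% level that chance alone passes in about 1 in 20 groups. The test was run on 88 pairs of a gene and a group, and all 7 came from this library, so they are not separate events. It held 35.4 CPM of LHCB1.2, where the next library held 20.9, and 288 CPM of PSBO1, where the next held 200. For the PSI antenna it held 183 CPM of LHCA4, 130 CPM of LHCA3 and 154 CPM of LHCA2, where the next libraries held 127, 88.8 and 108. It held 91.2 CPM of PSAD1 and 129 CPM of GAPB, where the next libraries held 68.8 and 70.2. The summed shoot markers of this library were 105 CPM, the highest of its group, and the summed root-type plastid isoforms were 691 CPM, the lowest of its group. Their part in these levels was not tested.

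The effect of a cpd shoot differed between cpd and WT roots, by the interaction in edgeR's fit across all genes, for 14 of the genes named. They were 5 of the 50 genes and 9 of the 88 other photosynthesis and greening genes tested, all below 0. Over all genes tested 5.43% were called below 0 and 2.3% above 0. Every listed gene called in the interaction was named by rule, and the lists were chosen with earlier results known. With such a choice, and with the 50 genes moving together, these counts do not set the lists apart. Among the 50 genes the interaction on the log2 scale was -2.77 for LHCB1.1, -1.82 for LHCB1.2, -1.16 for LHCB1.5, -1.76 for LHCB2.1 and -1.39 for RCA. Among light-harvesting-like and photorespiratory genes it was -2.88 for ELIP1, -2.45 for ELIP2, -0.88 for OHP1 and -1.47 for GOX1. For greening and chlorophyll synthesis it was -1.21 for CHLH, -0.65 for HEMA1, which makes the first committed precursor of chlorophyll and haem, -0.45 for SIG1, -1.63 for SIG5 and -0.46 for COP1, a repressor of light responses.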

How the results depend on the processing

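Of the 50 genes, the number called moved with the processing, while no called value changed sign under the alternatives run. For WT/cpd against WT/WT, 8 calls became 4 with no filter, with only the 2 groups compared and without the 4 least typical libraries (a setting chosen after seeing the data), 13 with DESeq2, and 4 to 18 with a library left out. For cpd/WT against WT/WT, 29 became 19 with no filter, 37 with DESeq2 and 14 to 35 with a library left out. For cpd/cpd against WT/WT, 23 became 7 without the 4 least typical libraries, 34 with DESeq2 and 6 to 26 with a library left out. For cpd/cpd against cpd/WT, 0 became 2 without the 4 least typical libraries, LHCB1.1 and CA1, both lower, and 0 to 1 with a library left out. For cpd/cpd against WT/cpd, 0 became 2 with DESeq2 and 0 to 1 with a library left out. For the interaction, 5 became 8 with DESeq2 and 4 to 11 with a library left out. The share of all genes called under each alternative is not given here. These counts therefore do not show whether the 50 genes moved more than the rest. The cause of these moves was not tested. LHCB1.1, LHCB1.4 and CA1 rest on few counts, which limits their precision.

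Same-numbered replicates did not deviate together more than others. The 30 pairs had a median correlation of 0.02, from -0.51 to 0.43, and 5 were above 0.1. The 120 pairs of other numbers had a median of -0.01, from -0.38 to 0.47, and 32 were above 0.1. Only 3 libraries correlated best with their own number. The labels do not say that equal numbers mark a shared plate or day. Neither these correlations nor a replicate block can therefore show whether libraries of different grafts were paired. With a replicate block the comparisons with WT/WT had 4 calls in place of 8 (WT/cpd), 19 in place of 29 (cpd/WT) and 12 in place of 23 (cpd/cpd), and the interaction had 4 in place of 5.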
